A study of Mus musculus with 55 samples.

Results

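The translation initiation factor genes were taken as the genes whose symbol starts with Eif and a digit from 1 to 6. Of 66 such genes in the count table, 10 annotated pseudogenes and the genes Eif2ak2, Eif2s3x and Eif2s3y were set aside, which left 53 genes of the 55421 in the table. They were followed in RNA-seq libraries of mouse bone marrow cells that had been sorted, 200 cells at a time, into long-term and short-term hematopoietic stem cells (LT-HSC, ST-HSC), common myeloid progenitors (CMP), granulocyte-monocyte progenitors (GMP), megakaryocyte-erythroid progenitors (MEP) and common lymphoid progenitors (CLP). Each population came from wild-type (WT) mice and from Tet2-KO mice on a C57BL/6 background, in 46 libraries. Most groups held 4 libraries, and the WT stem cell groups (LT-HSC and ST-HSC) held 3 each. The knockout carried floxed Tet2 alleles and Mx1-Cre, in which the interferon-inducible Mx1 promoter drives the recombinase after poly(I:C) injection, and the mice were induced when young and kept for several months before analysis. The Mx1 promoter responds to interferon in many cell types, so the deletion is not restricted to any one of these populations. Whether the WT mice also received poly(I:C) is not given in the sources used here. The question put to these genes was whether their transcript levels differed between the genotypes within a population and between the populations along the way from stem cell to committed progenitor.

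Initiation is the step at which a ribosome is brought to a messenger RNA and set on its start codon. The cap-binding protein eIF4E, the scaffold eIF4G and the helicase eIF4A load the messenger RNA, the multi-subunit eIF3 holds the small ribosomal subunit, and eIF2 carries the initiator transfer RNA, whose GTP is recharged by eIF2B. The factors eIF1, eIF1A and eIF5 govern scanning and the choice of the start codon, and eIF5B joins the large subunit. Protein synthesis is low in hematopoietic stem cells and rises in progenitors, and it is curbed by the eIF4E-binding proteins and by kinases that phosphorylate eIF2.

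By role, 14 of the 53 genes encode eIF3 subunits, 7 cap-binding proteins and scaffolds, 5 eIF2B subunits and 5 the helicase and its cofactors. Another 6 were grouped with the scanning factors, 4 encode eIF2 and its relatives and 4 encode inhibitors or binders of eIF4E. A further 4 belong to eIF5A, subunit joining and eIF6, and 3 are eIF2 kinases. The remaining 1 is Eif2c5, which is annotated as a long intergenic noncoding RNA. Eif4e1b and Eif2c5 had 0 counts in all 46 libraries, and Eif4ebp3 had 0 counts in 34 of them with a maximum of 137. These 3 genes passed no filter on low counts and were not tested, which left 50 genes, or 49 in the genotype comparison of CLP, where Eif5a2 also fell below the filter. The counts of Eif1a and Eif1ax, Eif3j1 and Eif3j2, and Eif4a1 and Eif4a2 may in part be split between related genes. The same holds for genes with expressed pseudogenes: Eif4a-ps4 had a median of 5487 counts per library and Eif3s6-ps2, a copy of Eif3e, 2825. In bulk libraries, fewer cells of a type and less RNA per cell cannot be told apart.

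The libraries held 50458500 to 102148000 counts each (median 70118200). Tet2 itself passed the genotype test in no population: in CPM (counts scaled to a common library total) it was at 17.4 to 23.5 in WT CMP and 6.05 to 25.8 in Tet2-KO CMP, and at 33.0 to 41.2 in WT GMP and 39.5 to 60.1 in Tet2-KO GMP. Its median was lower in Tet2-KO than in WT libraries of CMP, ST-HSC and MEP and higher in LT-HSC, GMP and CLP. A count over the whole gene does not show whether the floxed part was transcribed. The genotype is therefore given as labelled throughout. All 5 MEP and all 5 GMP marker genes were highest in the population of that label in both genotypes, as were 5 of 6 (WT) and 6 of 6 (Tet2-KO) LT-HSC markers. Summed, the LT-HSC markers did not separate the WT stem cell groups, at 198 to 350 CPM in WT LT-HSC (median 230) and 267 to 293 in WT ST-HSC (median 287), while in Tet2-KO they were at 344 to 421 and 133 to 298. The libraries labelled CLP stood apart: Ighm, the heavy chain of immunoglobulin M, took 10.3 to 15.9% of all counts in the WT CLP libraries and 4.11, 9.56 and 9.84% in 3 Tet2-KO CLP libraries, but 0.0616% in Tet2-KO CLP replicate 2. In the 38 libraries of the other 5 populations it took at most 0.0209%. Igkc, chosen after its values were seen, reached 13.9% in WT CLP, and Rag1, a defining lymphoid progenitor gene, had 0 counts in every WT CLP library. Of the 6 CLP markers, 4 in WT and 6 in Tet2-KO were highest in CLP. Among them Il7r, the receptor of interleukin 7, took 0.0265 to 0.0362% of counts in WT CLP, 0.0175 to 0.118% in Tet2-KO CLP, and at most 0.00117% in those 38 libraries. Counts at the steps between the other populations are given with and without the libraries labelled CLP.

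Of the 53 genes, 41 had an upstream window in RefSeq (assembly GRCm38.p6), the 250 bases before the annotated start. The windows of 4 genes are shown: Eif3f, Eif5 and Eif3j1, which fell in Tet2-KO libraries, and Eif3m, an eIF3 gene that did not. A window that ran into the GENCODE gene model was cut at the model's start, as for Eif5, Eif3j1 and Eif3m. The motifs searched, on both strands, were the CCAAT box core, the GC box core GGGCGG, the E-box CACGTG, the ETS family core CCGGAAG, the TATA box core TATAAA and the ATF4 site TGATGCAAT, and capitals mark their matches. Matches of the GC box core can overlap each other.
Eif3f, chr7:108934165-108934414, plus strand: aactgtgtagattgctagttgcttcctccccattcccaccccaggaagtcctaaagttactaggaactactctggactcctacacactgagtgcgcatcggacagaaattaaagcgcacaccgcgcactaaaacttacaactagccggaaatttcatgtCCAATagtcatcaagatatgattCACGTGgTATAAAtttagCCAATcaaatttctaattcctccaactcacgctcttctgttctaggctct
Eif5, chr12:111537851-111538015, plus strand: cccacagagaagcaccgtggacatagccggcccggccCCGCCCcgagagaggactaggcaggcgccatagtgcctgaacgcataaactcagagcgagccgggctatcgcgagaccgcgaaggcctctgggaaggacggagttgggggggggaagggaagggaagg
Eif3j1, chr2:122028330-122028545, plus strand: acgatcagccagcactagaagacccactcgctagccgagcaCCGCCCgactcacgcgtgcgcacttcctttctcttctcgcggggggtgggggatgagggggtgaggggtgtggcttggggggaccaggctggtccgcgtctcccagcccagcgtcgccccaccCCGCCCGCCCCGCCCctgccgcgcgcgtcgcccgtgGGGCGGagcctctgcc
Eif3m, chr2:105017081-105017277, minus strand: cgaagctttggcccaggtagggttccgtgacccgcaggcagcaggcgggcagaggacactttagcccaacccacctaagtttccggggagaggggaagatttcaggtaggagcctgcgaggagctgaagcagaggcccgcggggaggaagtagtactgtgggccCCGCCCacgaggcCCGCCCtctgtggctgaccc

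The Eif3f window was the poorest of the 4 in G and C, at 43.6%, and held 2 CCAAT matches, 1 CACGTG and 1 TATAAA. The Eif5, Eif3j1 and Eif3m windows had 66.7, 73.6 and 65.5% G and C and matched the GC box core 1, 5 and 2 times over both strands. Over the 41 windows of 250 bases, GGGCGG was found in 70.7%, against 33.0% of all 27025 gene windows, CCGGAAG in 24.4% against 7.07%, CACGTG in 17.1% against 6.04%, CCAAT in 29.3% against 34.5% and TATAAA in 7.32% against 12.98%. The site of the stress factor ATF4 was in 0 of 41 windows and in 0.185% of all. A match is a description of letters and not a binding site.

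Levels were compared between genes per kilobase of exon, as CPM per kilobase averaged over the 22 WT libraries. Eif5a, which helps the ribosome through difficult peptide bonds, was highest at 692 ± 329 (SD over libraries). It was followed by Eif3h at 197, Eif1 at 188, Eif3m at 179, Eif3k at 142 and Eif4a3, a helicase of the exon junction complex, at 141. This order is over pooled populations and need not hold within each. Eif1, for example, was at 660 CPM in WT CLP and 289 in WT GMP. The order depended on the length used: per kilobase of the longest transcript Eif5a was at 1144 and Eif1, at 298, stood above Eif3h, at 245, and Eif3g, at 225, took a place among the highest 6 from Eif4a3, at 198. The lowest genes were Eif5a2, the paralog of Eif5a, at 1.07, Eif4ebp3 at 0.0181, and Eif4e1b and Eif2c5 at 0. The 50 tested genes had a median of 41.1 CPM per kilobase. All 19968 genes with a length that were tested among the WT populations had a median of 1.87. Of the eIF2 kinases, Eif2ak1 (HRI) was at 9.32, Eif2ak4 (GCN2) at 2.86 and Eif2ak3 (PERK) at 2.15. Within eIF3 the level per kilobase spanned from 197 for Eif3h to 5.77 for Eif3j1, the gene of a loosely bound subunit.

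**Figure D1:**
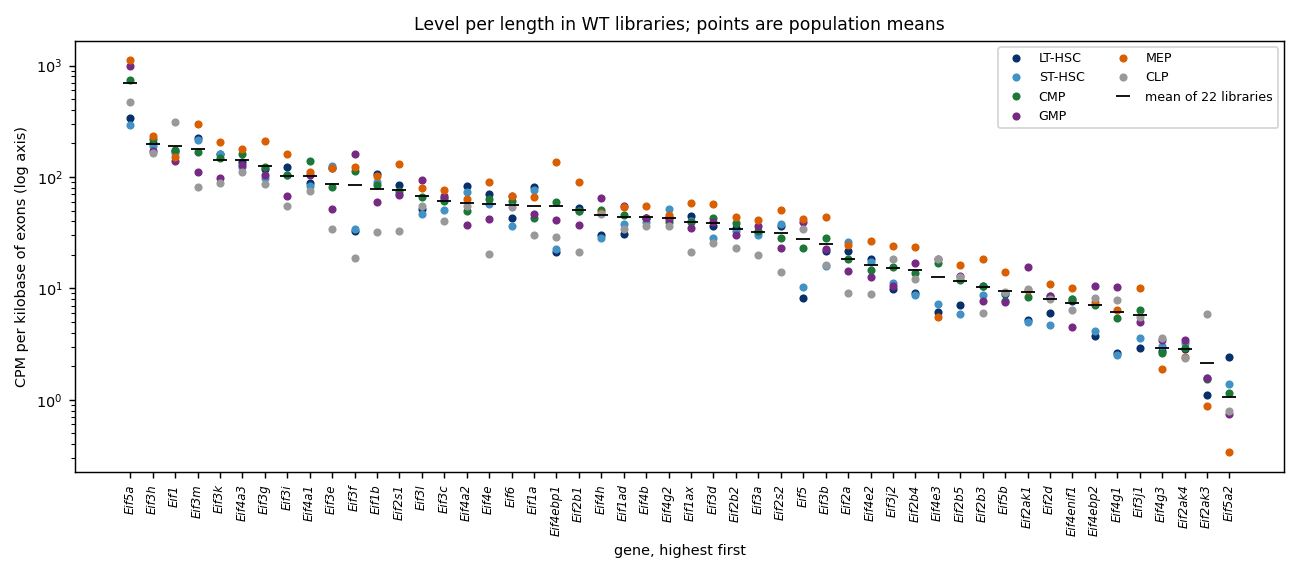
Level per kilobase of exon (CPM per kilobase, log axis) of the initiation factor genes in WT libraries, highest first; points are population means and the black bars the mean of 22 libraries. Eif5a stands at the top with 692, and Eif5a2 at 1.07 is the lowest of the genes that were tested.

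Together the 53 genes took 1.44 to 1.55% of all counts in WT MEP, the highest share of any group, and 1.22 to 1.28% in WT CMP. In the libraries labelled Tet2-KO the share was 1.33 to 1.39% in MEP and 1.11 to 1.18% in CMP, so the genotypes did not overlap in either population. Eif5a alone took 0.223 to 0.280% in WT MEP and 0.0826 to 0.131% in Tet2-KO MEP. Without Eif5a the share overlapped between the genotypes, at 1.19 to 1.27% and 1.22 to 1.26% in MEP and at 1.03 to 1.05% and 1.02 to 1.07% in CMP. Without Eif5a it still did not overlap in LT-HSC (0.989 to 1.03% in WT, 0.724 to 0.930% in Tet2-KO). The same held in ST-HSC (0.917 to 0.9997% and 0.838 to 0.869%) and GMP (0.909 to 0.932% and 0.868 to 0.906%). In LT-HSC the share of all 53 genes was 1.07 to 1.14% in WT and 0.759 to 0.997% in Tet2-KO. It was lower in all Tet2-KO than in all WT libraries of ST-HSC and GMP too. The lowest share was in WT CLP, at 0.361 to 0.601%, where Ighm alone took 10.3 to 15.9%, and it was 0.589 to 0.830% in Tet2-KO CLP. Mitochondrial transcripts made up 5.94 to 6.57% of counts in WT CMP and 7.85 to 8.37% in Tet2-KO CMP. Their share was also higher without overlap in Tet2-KO ST-HSC (10.0 to 13.1%, against 8.73 to 9.02%) and GMP (4.74 to 5.09%, against 3.64 to 4.60%), and higher at the median in LT-HSC (12.7 against 9.12%) and MEP (9.31 against 8.13%). In CLP, where the median share of the members was also higher in Tet2-KO, they made up 2.41 to 4.58% in WT and 3.11 to 12.5% in Tet2-KO libraries, and their part in the result was not tested.

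**Figure D2:**
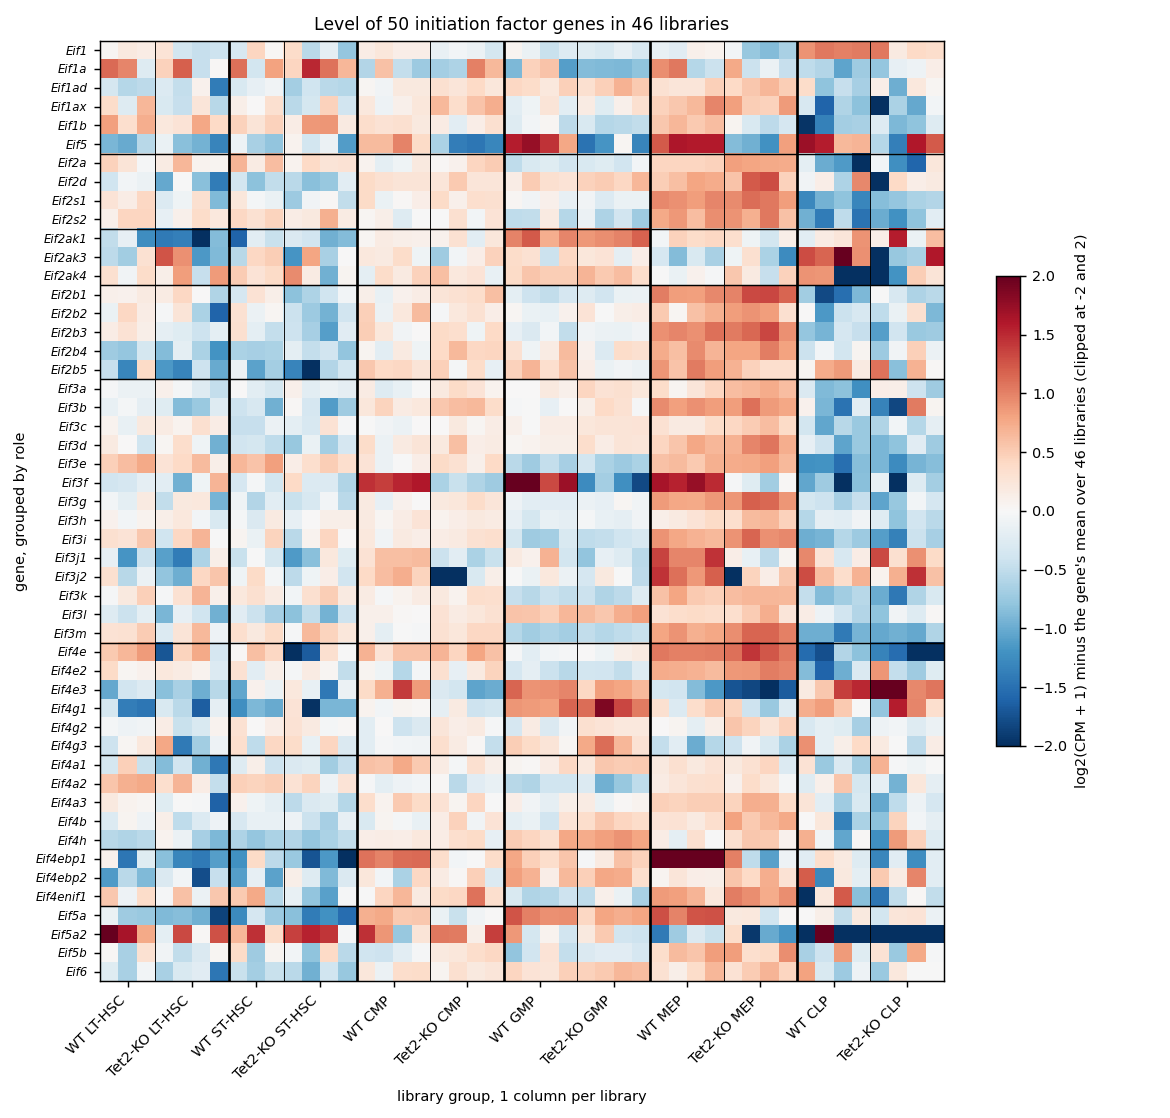
Level of the 50 tested initiation factor genes (rows, grouped by role) in each of the 46 libraries (columns, grouped by population and genotype), as log2(CPM + 1) minus the gene's mean over the libraries, with colours clipped at -2 and 2. The MEP columns are high for most genes. Eif3f and Eif5 are lower in every Tet2-KO column of CMP, GMP and MEP than in the WT columns of the same population. Not every one of these Tet2-KO columns is low for Eif5: Tet2-KO MEP replicate 5 is at 175 CPM, against 42.3 to 53.6 in the other Tet2-KO MEP libraries.

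The genotypes were compared within each population with edgeR's quasi-likelihood test over all genes tested, and a gene passed at a Benjamini-Hochberg adjusted p of 0.05. In the CMP, 3 of the 50 genes rose and 7 fell in Tet2-KO libraries, where 1.71% of all genes tested rose, 5.18% fell and 6.89% passed in all. Without Tet2-KO CMP replicate 5 or WT CMP replicate 4, 6 members passed and 0 were higher. In 1 fit of all 46 libraries 4 passed and 0 were higher, with the calls of Eif1ax, Eif3m and Eif5b lost. In the MEP, 3 rose and 7 fell, against 0.656% and 5.01% of all genes (5.66% in all). With 1 library left out 5 to 8 members passed, with 0 higher in 6 of the 8 fits, and 0 were higher with no low-count filter, in the fit of 46 libraries or with the replicate number as a block. In the GMP, 0 rose and 3 fell, against 1.07% and 5.49% (6.56% in all), and at an unadjusted p under 0.05 the GMP count was 11, against 17.3% of all genes. The share of members that fell in GMP was thus near that of all genes, while in CMP and MEP it was above it. The members had a higher typical level, with a median of 41.1 CPM per kilobase in WT libraries against 1.87 over all genes tested. Their shares were not compared with those of genes of like level. The members that fell included the eIF3 subunit Eif3f, the start codon factor Eif5, the cap-binding protein Eif4e3, the eIF4E inhibitor Eif4ebp1 and Eif5a. The typical member changed little: the median log2 fold change over members was 0.09 in CMP, 0.04 in GMP and 0.10 in MEP, beside 0.03, 0.03 and 0.05 over all genes. With the study's added threshold of 2-fold, 4, 2 and 6 members were lower in CMP, GMP and MEP, against 3.92, 4.06 and 4.21% of all genes, and 0 were higher, against 0.654, 0.308 and 0.147%.

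In the stem cells, none of the 50 genes passed in either direction in LT-HSC or in ST-HSC, where 0.0245% and 0.0185% of all genes did, and 1 and 2 members had an unadjusted p under 0.05, against 5.16% and 6.13% of all genes. DESeq2 also called 0 members in both. The median log2 fold change was -0.14 in LT-HSC and -0.10 in ST-HSC, beside 0.06 and 0.04 over all genes. In the libraries labelled CLP, 0 of 49 genes passed, against 0.00766% of all genes, with 1 at an unadjusted p under 0.05 (3.65% of all genes), and 0 passed with DESeq2. In 1 fit of all 46 libraries 4 of 50 genes passed in CLP, a share near the 7.38% of all genes that passed in that fit: Eif2b1, Eif3a and Eif4e2 were higher and Eif5a2 was lower. The CLP count was 0 as well with Tet2-KO CLP replicate 2, or any other single library, left out.

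Eif3f, an MPN-domain subunit of eIF3, lies at chr7:108934417-108942951 on the plus strand (mm10), and had the largest fall in CMP and in GMP. Its level was 320, 305, 336 and 354 CPM in the WT CMP libraries and 74.4, 85.4, 76.3 and 70.6 in the Tet2-KO CMP libraries. In GMP it was 669, 533, 291 and 381 in WT and 47.8, 72.3, 49.4 and 32.5 in Tet2-KO. In MEP it was 367, 339, 393 and 331 in WT and 115, 98.5, 71.1 and 118 in Tet2-KO. Every Tet2-KO library lay below every WT library in these 3 populations. The fall was 4.33-fold in CMP (log2 fold change -2.12, SE 0.10, adjusted p = 8.1e-06), 9.43-fold in GMP (-3.24, SE 0.30, adjusted p = 4.5e-05) and 3.56-fold in MEP (-1.83, SE 0.17, adjusted p = 0.00022). In LT-HSC the values overlapped, at 88.9, 91.9 and 102.2 CPM in WT and 100.3, 59.2, 109.5 and 186 in Tet2-KO. In ST-HSC they overlapped too, at 92.3, 113 and 89.5 in WT and 153, 95.7, 96.2 and 76.4 in Tet2-KO.

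Most other eIF3 genes lay near 0 or slightly above it. Of the 13 other eIF3 genes, Eif3j1 fell in CMP and in MEP and Eif3m rose in CMP, and no other eIF3 gene passed in CMP, GMP or MEP. Eif3a, the large scaffold subunit, had log2 fold changes of 0.28 (SE 0.11) in CMP, 0.21 (SE 0.10) in GMP and 0.37 (SE 0.10) in MEP, with adjusted p of 0.22, 0.33 and 0.072. Eif3e had 0.21, -0.02 and 0.12. Eif3j1, at chr2:122028546-122056598, was at 30.9, 38.6, 38.6 and 39.5 CPM in WT CMP and at 18.3, 21.5, 15.8 and 18.2 in Tet2-KO CMP. Its fall was 2.02-fold in CMP (log2 -1.01, SE 0.16, adjusted p = 0.005) and 2.54-fold in MEP (log2 -1.35, SE 0.20, adjusted p = 0.0038), with no overlap between the genotypes in either. In 1 fit of all 46 libraries it did not pass in CMP (adjusted p = 0.20). Its near copy Eif3j2 varied widely in Tet2-KO CMP, at 0, 1.46, 20.0 and 27.0 CPM against 32.8 to 41.9 in WT, and did not pass (adjusted p = 0.57). Eif3m, higher in all 4 Tet2-KO CMP libraries (524 to 592 CPM against 388 to 480), passed narrowly at 1.28-fold (adjusted p = 0.047), and did not pass when any 1 of the 8 libraries was left out (adjusted p 0.051 to 0.11).

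**Figure D3:**
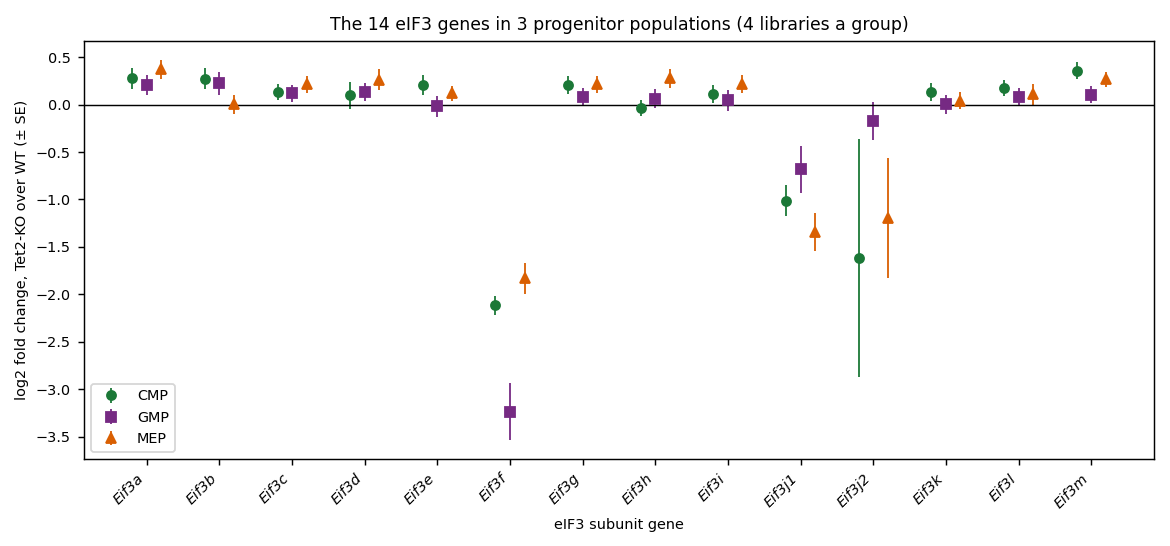
Log2 fold change, Tet2-KO over WT, with its standard error, of the 14 eIF3 genes in CMP, GMP and MEP (4 libraries a group). Eif3f lies at -2.12, -3.24 and -1.83, Eif3j1 and Eif3j2 at or below 0, and the other 11 genes between -0.04 and 0.37.

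Eif5, the GTPase-activating protein of eIF2 at chr12:111538016-111546752, was the other gene that fell in CMP, GMP and MEP. Genes lower in all 3 populations were 351 of 13911 tested in all 3, or 2.52%, and among the members they were Eif3f and Eif5. Its level was 153, 154, 198 and 129 CPM in WT CMP and 63.5, 37.4, 35.6 and 39.6 in Tet2-KO CMP, a 3.64-fold fall (log2 -1.87, SE 0.21, adjusted p = 0.00081). In GMP the WT libraries were at 296, 333, 270.0 and 169 CPM and the Tet2-KO libraries at 34.8, 42.9, 101.995 and 39.2 (log2 -2.32, SE 0.35, adjusted p = 0.0017). Neither population showed an overlap. In MEP the WT libraries were at 232, 304, 297 and 300 CPM and 3 Tet2-KO libraries at 53.6, 50.4 and 42.3, but Tet2-KO MEP replicate 5 was at 175. The difference in MEP (log2 -1.81, SE 0.44) passed at an adjusted p of 0.045. Without Tet2-KO MEP replicate 5 it was -2.55 (adjusted p = 0.0001), and leaving out any other MEP library raised the adjusted p above the threshold, to as much as 0.13. Eif1, Eif1b and Eif1ax, which act with Eif5 in scanning, moved less: Eif1b fell 1.82-fold in MEP (53.2 to 79.7 CPM against 111 to 123 in WT, adjusted p = 0.0055), Eif1ax was 1.36-fold higher in CMP (adjusted p = 0.045), a call kept without Tet2-KO CMP replicate 3 and lost without any other single library, and Eif1 did not pass in CMP (log2 -0.34, adjusted p = 0.056) or in MEP (log2 -0.51, adjusted p = 0.19).

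At the cap, Eif4e3 fell in CMP and MEP, and Eif4g2 was the only other of the 6 tested cap-binding and scaffold genes that passed, in MEP. Eif4e3, an atypical cap-binding protein whose gene is at chr6:99625135-99666771 on the minus strand, was at 29.8, 37.6, 60.9 and 41.2 CPM in WT CMP and at 18.2, 17.2, 10.3 and 10.9 in Tet2-KO CMP, a 3.03-fold fall (log2 -1.60, SE 0.28, adjusted p = 0.0087). In MEP it was at 17.5, 17.0, 11.9 and 9.59 CPM in WT and 6.14, 5.67, 4.2 and 6.42 in Tet2-KO, a 2.50-fold fall (adjusted p = 0.018). That call was lost without Tet2-KO MEP replicate 3 or 4 or WT MEP replicate 2 or 3, with adjusted p up to 0.060. With the replicate number as a block, Eif4e3 did not pass in CMP (adjusted p = 0.068) or MEP (0.063). In GMP its values also did not overlap (43.0 to 51.7 CPM against 30.3 to 40.9), but the difference did not pass (log2 -0.35, SE 0.14, adjusted p = 0.21). Eif4e, the main cap-binding protein, had log2 fold changes of 0.08, 0.09 and 0.18 in CMP, GMP and MEP, and Eif4e2 of 0.34, -0.04 and 0.23. Among the scaffolds, Eif4g1 had -0.22, 0.41 and -0.45, none passing, and Eif4g2, which lacks the eIF4E-binding part, was 1.34-fold higher in MEP (559 to 685 CPM against 407 to 506, adjusted p = 0.044), a call kept without Tet2-KO MEP replicate 4 and lost without any other single library.

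The inhibitor Eif4ebp1, which holds eIF4E away from the scaffold until it is phosphorylated downstream of mTOR, lies at chr8:27260329-27276674. It had the largest fall of any member in MEP, at 289, 322, 319 and 266 CPM in WT and 125, 43.2, 28.6 and 57.3 in Tet2-KO, a 4.73-fold fall (log2 -2.24, SE 0.40, adjusted p = 0.01). In CMP it was at 132, 124, 135 and 136 CPM in WT and 79.2, 59.5, 61.3 and 79.7 in Tet2-KO, a 1.91-fold fall (log2 -0.93, SE 0.13, adjusted p = 0.0024). Both calls held with each library left out, though the CMP call was lost in a single fit of all 46 libraries (adjusted p = 0.39), and neither population had an overlap. In GMP the ranges met (78.9 to 106 CPM in WT, 60.7 to 93.3 in Tet2-KO) and it did not pass (log2 -0.26, adjusted p = 0.43). Eif4ebp2, the related inhibitor, had log2 fold changes of 0.07, -0.03 and 0.36 and did not pass in any of the 3.

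The most abundant member, Eif5a (chr11:69916714-69921958, minus strand), was at 1882, 1938, 1650 and 1664 CPM in WT CMP and at 1041, 845, 1090 and 1150 in Tet2-KO CMP. The fall was 1.75-fold (log2 -0.80, SE 0.11, adjusted p = 0.002). In MEP it was at 2799, 2272, 2757 and 2780 CPM in WT and 1319, 1330, 873 and 1163 in Tet2-KO, a 2.28-fold fall (log2 -1.19, SE 0.14, adjusted p = 0.0011). The genotypes did not overlap in either, and both calls held with each library left out. In GMP they did not overlap (2173 to 2739 CPM against 1530 to 1975) but the difference did not pass (log2 -0.39, SE 0.11, adjusted p = 0.057). Eif5b, the subunit-joining GTPase, was 1.46-fold higher in CMP (102.1 to 119 CPM against 67.0 to 87.6, adjusted p = 0.029), a call kept without Tet2-KO CMP replicate 2 or WT CMP replicate 5 and lost without any other single library, and Eif6, which keeps the ribosomal subunits apart, had log2 fold changes of -0.02, 0.18 and 0.10.

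**Figure D4:**
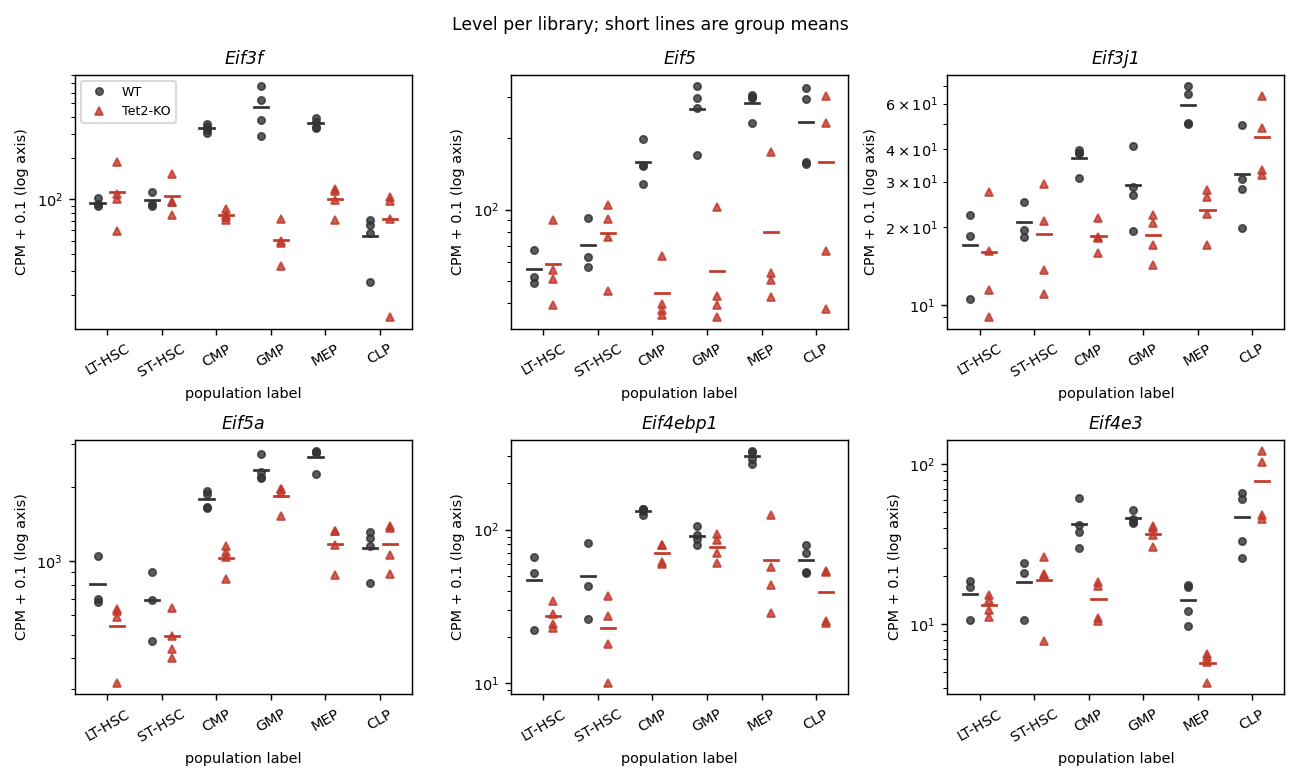
Level (CPM + 0.1, log axis) of Eif3f, Eif5, Eif4ebp1, Eif4e3, Eif5a and Eif3j1 in each library by population label and genotype; short lines are group means. Eif3f in Tet2-KO libraries is at 32.5 to 118 CPM in CMP, GMP and MEP, below all WT libraries there (291 to 669), and overlaps WT in LT-HSC, ST-HSC and CLP.

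Of the helicase and its cofactors, Eif4a1 fell 1.39-fold in CMP (387 to 500 CPM against 575 to 673, adjusted p = 0.02). That call was lost without Tet2-KO CMP replicate 2, Tet2-KO CMP replicate 5 or WT CMP replicate 4, with adjusted p up to 0.055. Eif4b, which stimulates the helicase, was 1.33-fold higher in MEP (294 to 356 CPM against 230.5 to 258, adjusted p = 0.041) and kept the call only without Tet2-KO MEP replicate 3. In the eIF2 group, Eif2a, an alternative initiator carrier, was 1.26-fold higher in MEP (188 to 197 CPM against 150.0 to 153, adjusted p = 0.04), and did not pass with any single library left out. Eif2s1, the phosphorylated subunit of eIF2, had log2 fold changes of 0.16, -0.17 and 0.06. Of the 5 eIF2B genes, Eif2b5, the catalytic subunit, fell 1.54-fold in GMP (20.9 to 25.3 CPM against 29.3 to 37.5, adjusted p = 0.024), a call kept without Tet2-KO GMP replicate 2 or 3 or WT GMP replicate 4 and lost without any other single library. The 3 eIF2 kinases, Eif2ak1, Eif2ak3 and Eif2ak4, did not pass in any population.

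Libraries of the same label differed between genotypes in markers of other cells. The 5 MEP markers summed to 480 to 1499 CPM in WT CMP and to 2704 to 5555 in Tet2-KO CMP, without overlap, while the 5 GMP markers summed to 3759 to 5259 and 3468 to 3772. The 5 B-cell markers summed to 162 to 230 CPM in WT CMP and 101 to 122 in Tet2-KO CMP. The part of these markers in the CMP differences was not tested. In GMP the 5 mature neutrophil markers summed to 15.6 to 50.9 CPM in WT and 4.74 to 20.0 in Tet2-KO libraries, with the same limit. In MEP the 5 globin and late erythroid markers summed to 157 to 430 CPM in WT and 80.5 to 106 in Tet2-KO, and their part in the MEP differences was not tested either.

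The G and C content at the start of the transcript was compared next, a feature that the test did not use. The first 200 bases of the transcript had a median of 70.5% G and C over the 7 members lower in CMP, against 61% over the other 43. All genes lower in CMP had 69%, against 58.5% over the rest. In MEP it was 71% for the 7 lower members and 61% for the others, beside 70% and 59% over all genes. Per gene it was 71% for Eif3f, 67.5% for Eif5, 68% for Eif4e3, 70.5% for Eif3j1, 75% for Eif4ebp1 and 71% for Eif5a, while Eif4a1 had 51.5%. With the levels corrected for this G and C content, an alternative chosen after seeing the data, the log2 fold change of Eif3f was -1.83 in CMP, -3.10 in GMP and -1.59 in MEP. Under the same correction Eif5 was at -1.78, -2.34 and -1.75, with an adjusted p of 0.055 in MEP, and Eif5a at -0.51 in CMP (adjusted p = 0.039). All 7 of the lower members in CMP and 6 of the 7 in MEP passed with the correction. The correction takes off the median trend of each library, and the part of G and C content in the fall of a gene was not tested.

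Whether the genotype difference itself differed between populations was tested with the interaction of genotype and population over all 46 libraries. It passed for 4 of the 50 members, Eif3f (adjusted p = 1.3e-05), Eif4e3 (0.016), Eif5a2 (0.03) and Eif5 (0.043), against 2.65% of all 22360 genes, and 14 members had an unadjusted p under 0.05, against 14% of all genes. With the replicate number as a block, 2 members passed, Eif3f and Eif4e3, and Eif5 and Eif5a2 did not. For Eif3f the genotype difference on the log2 scale was 0.29 (SE 0.35) in LT-HSC, 0.14 (SE 0.26) in ST-HSC and 0.39 (SE 0.60) in CLP, beside the falls in CMP, GMP and MEP. Eif5 was at 0.09, 0.20 and -0.56 in LT-HSC, ST-HSC and CLP, and Eif4e3 at -0.21, 0.07 and 0.77. With the libraries labelled CLP left out, 3 members passed, Eif3f (3.6e-07), Eif5 (0.0036) and Eif4e3 (0.049), against 2.53% of all genes, and Eif5a2 did not. The result for Eif3f held in all 8 fits that left out 1 replicate number of a genotype (adjusted p 1.5e-07 to 0.0013). For Eif5 it held only without Tet2-KO replicate 4 or 5, for Eif4e3 only without Tet2-KO replicate 4 or WT replicate 5, and for Eif5a2 only without WT replicate 2, 4 or 5.

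The populations were then compared step by step, in the WT libraries and again in the Tet2-KO libraries, which share no samples. Any difference among the 6 populations was passed by 42 of the 50 members in WT and 43 in Tet2-KO libraries, against 44.6% and 40.2% of all genes. Without the libraries labelled CLP the counts were 43 and 42, against 50.7% and 48.0%. Here too the members had a higher typical level than all genes, and genes of like level were not compared. MEP was the population of highest mean level for 30 members in WT and 28 in Tet2-KO libraries, and CLP the lowest for 26 and 21. The median member spanned 2.71-fold between its highest and its lowest population in WT and 2.72-fold in Tet2-KO libraries. Over the 5 populations without CLP, MEP was the highest for 30 and 31 members, and the median spans were 2.14-fold and 2.46-fold. Highest and lowest populations and spans were not worked out over all genes, so these values do not set the members apart. From LT-HSC to ST-HSC, 0 members passed in either genotype by edgeR or DESeq2, against 0.175% and 0.118% of all genes, and 1 and 4 had an unadjusted p under 0.05 (8.85% and 8.57% of all genes).

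From ST-HSC to CMP, 5 members rose and 2 fell in WT libraries (4.25% and 2.05% of all genes), and 7 rose and 0 fell in Tet2-KO libraries (2.43% and 1.52%). With any 1 of the 8 libraries left out 2 to 4 rose in Tet2-KO, and in WT 2 to 7 passed with any 1 of 7 left out. In all, 6.31% and 3.96% of genes passed. At 2-fold, 5 members were higher and 0 lower in WT (3.77% and 1.23% of all genes). Eif4ebp1 and Eif5a rose in both, against 0.99% of all genes. Eif5a was at 472.5, 904 and 695 CPM in WT ST-HSC and 1650 to 1938 in WT CMP (log2 1.37, SE 0.21, adjusted p = 0.00031). In Tet2-KO libraries it was at 642.5, 437, 494 and 399.9 CPM in ST-HSC and 845 to 1150 in CMP (log2 1.05, SE 0.21, adjusted p = 0.0076). Eif4ebp1 rose by 1.40 (SE 0.33) in WT and 1.59 (SE 0.42) in Tet2-KO libraries on the log2 scale, from 26.0, 81.2 and 42.6 CPM in WT ST-HSC and 36.7, 17.9, 27.2 and 9.99 in Tet2-KO ST-HSC. The Tet2-KO call for Eif4ebp1 was kept without Tet2-KO ST-HSC replicate 2 and lost without any other single library, and its WT call was lost without WT ST-HSC replicate 2 or 5. Eif3f and Eif5 rose at this step in WT libraries (log2 1.74 and 1.16, adjusted p = 0.00091 and 0.015) and were at -0.48 (adjusted p = 0.64) and -0.87 (adjusted p = 0.44) in Tet2-KO libraries. That contrast between the genotypes was not tested at this step alone, only in the interaction over all populations. Without the libraries labelled CLP in the fit, 17 members rose and 5 fell in WT (18% of all genes passed) and 16 rose and 0 fell in Tet2-KO (13.2%). The members that rose in both were then 10, against 4.28% of all genes: Eif4ebp1, Eif5a, the eIF2B genes Eif2b4 and Eif2b5, the eIF3 genes Eif3b, Eif3d and Eif3l, Eif2d, Eif4h and Eif6.

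At the branch to MEP, 12 members rose and 1 fell in WT libraries, where 2.75% of all genes rose and 6.14% fell (8.9% in all). At 2-fold, 1 was higher and 1 lower in WT, against 0.93% and 5.52%. In Tet2-KO libraries 6 rose and 1 fell, against 0.603% and 3.53%. The CMP libraries differed in summed MEP markers, at 480 to 1499 CPM in WT and 2704 to 5555 in Tet2-KO. Their part in this step, or in the other steps that use CMP, was not tested. The median member was 0.32 higher on the log2 scale in WT and 0.38 higher in Tet2-KO, while over all genes the medians were -0.12 and -0.09. The 6 members that rose in both genotypes were the eIF2 subunit Eif2s1, the eIF2B subunits Eif2b1 and Eif2b3, and the eIF3 subunits Eif3e, Eif3g and Eif3m, and 0.46% of all genes rose in both. Eif3m went from 388 to 480 CPM in WT CMP to 731 to 830 in WT MEP (log2 0.77, SE 0.11, adjusted p = 9.5e-05), and from 524 to 592 in Tet2-KO CMP to 853 to 999 in Tet2-KO MEP (log2 0.73, SE 0.17, adjusted p = 0.012). Eif2b1 rose by 0.82 (SE 0.19) in WT and 0.83 (SE 0.20) in Tet2-KO, from 111 to 137 CPM in WT CMP to 220 to 253 in WT MEP. Eif4e3 fell in both, by 1.65 (SE 0.35, adjusted p = 0.0039) in WT and 1.33 (SE 0.36, adjusted p = 0.039) in Tet2-KO libraries on the log2 scale. In the Tet2-KO libraries the calls of Eif2s1, Eif3e and Eif3g were lost with any 1 library of the step left out. Eif2b1 kept its Tet2-KO call without Tet2-KO MEP replicate 2 or 5 or Tet2-KO CMP replicate 5, Eif4e3 without Tet2-KO CMP replicate 4 or 5, and Eif2b3 lost its call without replicate 4 of Tet2-KO CMP or MEP, so that the Tet2-KO count was between 1 and 4. With the replicate number as a block, Eif3e did not pass in Tet2-KO (adjusted p = 0.063). In WT, Eif3e lost its call without WT MEP replicate 5. Without the libraries labelled CLP, 22 rose and 2 fell in WT (20.1% of all genes passed) and 13 rose and 1 fell in Tet2-KO (10.4%). The members that rose in both were then 10, against 2.1% of all genes, with Eif2a, Eif2s2, Eif3i and Eif4e2 beside the 6 above, and Eif4e3 was again the member that fell in both, against 6.39%.

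At the branch to GMP, 2 members rose and 4 fell in WT libraries, against 2.1% and 2.71% of all genes (4.81% in all), and 2 rose and 2 fell in Tet2-KO libraries, against 1.98% and 1.93%. With any 1 library left out 3 to 4 passed in WT and 2 to 4 in Tet2-KO. In WT 0 rose without WT GMP replicate 3, in the fit of 46 libraries or with no low-count filter. In Tet2-KO 0 rose without replicate 2 or 3 of Tet2-KO CMP or replicate 3, 4 or 5 of Tet2-KO GMP. At 2-fold, 0 members passed in WT, against 1.6% higher and 1.54% lower over all genes. Eif3e and Eif3m fell in both genotypes, against 1.07% of all genes. Eif3e was at 483 to 629 CPM in WT CMP and 318 to 375 in WT GMP (log2 -0.66, SE 0.13, adjusted p = 0.0038), and at 559 to 689 in Tet2-KO CMP and 316 to 407 in Tet2-KO GMP (log2 -0.81, SE 0.13, adjusted p = 0.0014). Eif3m fell by 0.60 (SE 0.11) and 0.78 (SE 0.17) on the log2 scale in WT and Tet2-KO libraries. These calls held with each library left out. Both also rose toward MEP in both genotypes. Without the libraries labelled CLP, 5 rose and 11 fell in WT (15.8% of all genes passed), and 4 rose and 5 fell in Tet2-KO (13.2%). In that fit Eif3e, Eif3i, Eif3k and Eif3m fell in both, against 4.56% of all genes, and Eif4g1 and Eif4h rose in both, against 4.02%. Eif3i then shared the pattern of Eif3e and Eif3m, with a log2 fold change of -0.62 toward GMP and 0.61 toward MEP in WT and of -0.61 and 0.75 in Tet2-KO.

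**Figure D5:**
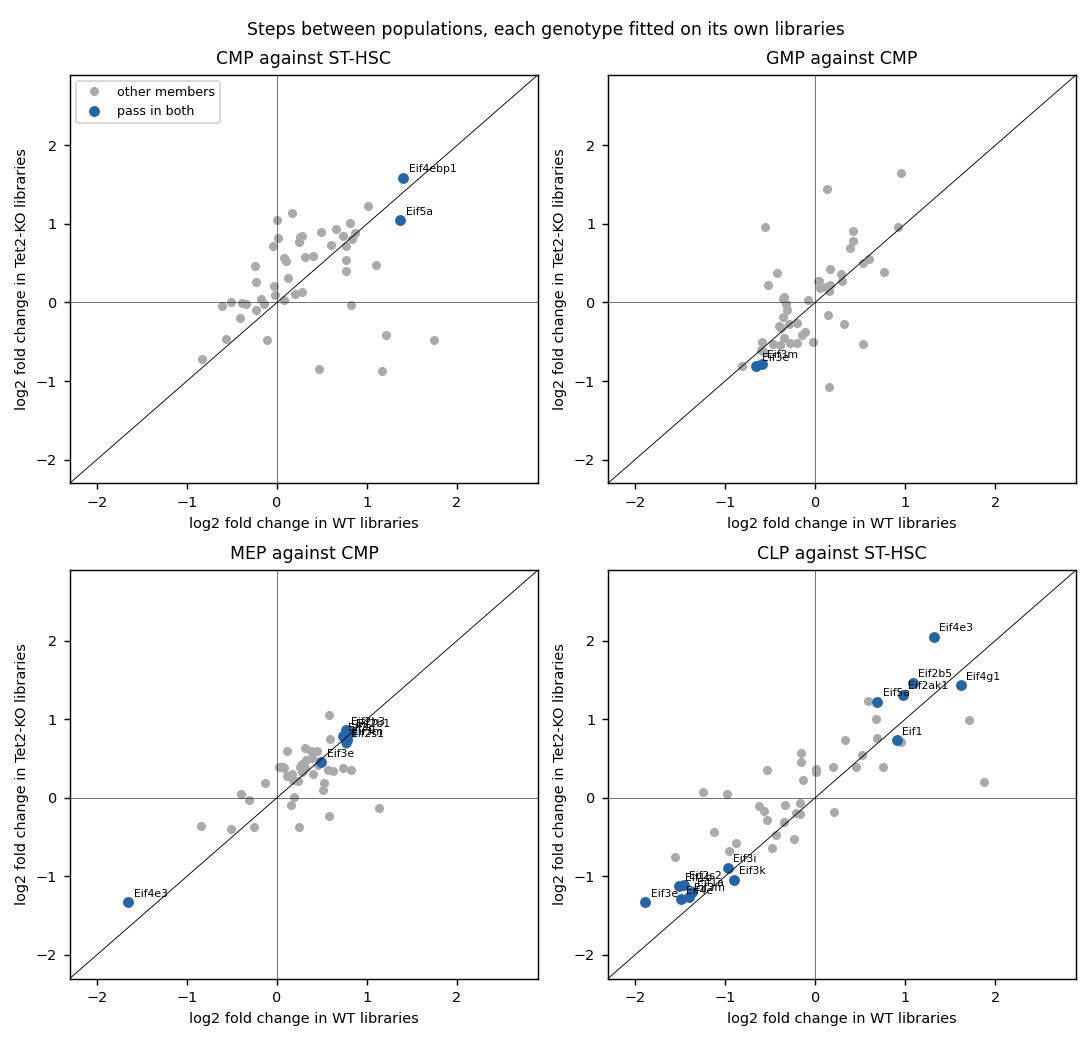
Log2 fold change of the initiation factor genes at 4 steps (ST-HSC to CMP, CMP to GMP, CMP to MEP, ST-HSC to CLP), in WT libraries (horizontal axis) and in Tet2-KO libraries (vertical axis), each genotype fitted on its own libraries; the diagonal marks equal values and blue points passed in both genotypes. At the step from CMP to MEP most points lie above 0 on both axes (medians 0.32 and 0.38), with Eif4e3 far below 0 at -1.65 and -1.33.

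Between the libraries labelled CLP and ST-HSC, 10 members were higher and 18 lower in WT (11.2% and 16.9% of all genes), and 7 higher and 10 lower in Tet2-KO (10.2% and 12.8%). The balance differed between settings: with RLE scaling in place of TMM it was 12 higher and 13 lower in WT and 10 and 9 in Tet2-KO, with the G and C correction 13 and 11 and 8 and 9, and with DESeq2 14 and 16 and 12 and 11. Without Tet2-KO CLP replicate 2, which carried little immunoglobulin transcript, 18 members passed in Tet2-KO in place of 17. Without WT ST-HSC replicate 2, 17 passed in WT (4 higher and 13 lower) in place of 28. In both genotypes 6 members were higher and 8 lower, against 6.07% and 7.38% of all genes. Among them Eif1 and Eif5a were higher and Eif3i and Eif3k lower, and the rest are named next. Lower in both were Eif3e (log2 -1.89 in WT, -1.33 in Tet2-KO), Eif3m (-1.40, -1.26), Eif2s2, the beta subunit of eIF2 (-1.46, -1.10), and Eif1b (-1.51, -1.12), each with any 1 library left out. Eif4e (-1.49, -1.29) and Eif1a (-1.37, -1.20) were lower too, but Eif4e kept its Tet2-KO call in 3 of 8 and Eif1a its calls in 1 of 7 and 3 of 8 such fits. With RLE scaling, no low-count filter or the G and C correction, Eif4e did not pass in Tet2-KO (adjusted p 0.058, 0.070 and 0.18) nor Eif1a in WT (0.074, 0.058 and 0.10, and 0.051 with DESeq2). Eif1a in Tet2-KO did not pass with no low-count filter (0.054) or in the fit of 46 libraries. Higher in both were Eif4e3 (1.32, 2.05), whose WT call was lost without WT ST-HSC replicate 2, Eif4g1 (1.62, 1.43), which kept its Tet2-KO call in 3 of 8, Eif2b5 (1.08, 1.46), in 3 of 7 and 6 of 8, and Eif2ak1, the heme-regulated eIF2 kinase (0.98, 1.31), in 4 of 7 and 6 of 8. In WT libraries Eif2ak1 and Eif2b5 did not pass with no low-count filter, in the fit of 46 libraries or with the G and C correction (adjusted p 0.078 and 0.066), and neither passed in Tet2-KO with that correction. Eif4g1 did not pass in Tet2-KO with no low-count filter (0.052). With the replicate number as a block, Eif4e and Eif1a did not pass in Tet2-KO (0.098 and 0.053). Eif5a2 had 0 counts in all 4 Tet2-KO CLP libraries, where 3 counts per library would be 0.0391 to 0.0594 CPM. Against that floor it was on average at least 148-fold lower than in Tet2-KO ST-HSC, where it was at 10.0, 11.3, 10.5 and 3.19 CPM. In WT CLP it had 0 counts in 3 libraries and 16.0 CPM in replicate 3. The B-cell markers summed to 145492 to 278768 CPM in WT CLP, 683 to 130860 in Tet2-KO CLP and at most 230 elsewhere, and their part in these differences was not tested.

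Other genes of the translation pathway were counted from lists of 48 genes, taken for elongation, termination, poly(A) binding, further helicases, upstream kinases and targets of the integrated stress response. In CMP 3 rose and 2 fell of 47 tested, in GMP 2 rose and 2 fell of 48, and in MEP 0 rose and 2 fell of 46. Over all genes 1.71% rose and 5.18% fell in CMP, 1.07% and 5.49% in GMP and 0.656% and 5.01% in MEP. In LT-HSC, ST-HSC and CLP 0 genes of the lists passed by edgeR, and 3, 7 and 6 of 47 had an unadjusted p under 0.05, against 5.16, 6.13 and 3.65% of all genes. Rheb, the GTPase that switches on mTOR upstream of Eif4ebp1, fell in all 3 progenitors: it was at 148 to 157 CPM in WT CMP and 28.2 to 63.7 in Tet2-KO CMP (log2 -1.82, SE 0.22, adjusted p = 0.0012). In MEP it was at 155 to 183 CPM in WT and 18.2 to 53.3 in Tet2-KO (log2 -2.59, SE 0.34, adjusted p = 0.0019), and in GMP at 112 to 159 and 67.9 to 74.0 (log2 -1.05, SE 0.13, adjusted p = 0.00048). Ddit3, a transcription factor induced when eIF2 is phosphorylated, fell 2.82-fold, 2.52-fold and 2.48-fold in CMP, GMP and MEP. Asns, asparagine synthetase and another target of that response, rose by 1.37 (SE 0.32, adjusted p = 0.033) in CMP, from 30.4 to 85.8 CPM in WT to 96.1 to 197 in Tet2-KO. Asns was also higher in MEP than in CMP in WT libraries (log2 2.67, SE 0.29, adjusted p = 3.3e-06), and the part of the higher MEP marker level of Tet2-KO CMP in its rise was not tested. Ddx3x, a helicase of structured leaders, rose in GMP (log2 0.57, SE 0.14, adjusted p = 0.03). Of the 8 elongation genes, 1 rose in CMP and 0 passed in GMP or MEP.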

How the data were processed

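The authors sorted bone marrow cells, made full-length mRNA libraries with a modified SMART-Seq2 protocol, trimmed reads with Trim Galore and aligned them with HISAT2 to mm10 (the submitters' notes also list mm9), and deposited a table of raw counts per gene. The counting program and annotation are not given in the sources used here, nor is strand, so overlapping and antisense genes cannot be told apart. A second table of 9 LT-HSC libraries was not used here.

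Counts were tested as deposited with edgeR 4.0.16 (filterByExpr, TMM scaling, quasi-likelihood F test, prior count 2; R 4.3.3), with Benjamini-Hochberg adjustment over all genes tested. Each genotype comparison was fitted on its own population, and each step between populations on all libraries of a genotype. Levels are TMM-scaled CPM. Per-kilobase levels use merged exon lengths of a GENCODE annotation of mm10. The procedure was checked on simulated data. Alternatives were RLE scaling, no low-count filter, 1 fit of 46 libraries, a replicate block, DESeq2 1.42.0, the 2-fold threshold and leaving out each library. A correction for G and C content and fits without CLP were added after seeing the data.

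The members and lists were chosen with earlier results of these data known. Genes were named by rule: members passing a genotype comparison (the 10 of largest change per population), members passing a step in both genotypes (10 per step), the 6 highest and 4 lowest per kilobase, members passing the interaction, the 3 largest passing changes of the other lists and population, and members chosen for their role. The labels give a number to a genotype's libraries across its populations (WT replicate 2 in each, for example). Whether it marks 1 mouse is not stated in the sources used here, although the study's figure legends count replicates as mice.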

Additional observations from a re-analysis of the deposited data

Results flagged for a closer look

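In 6 cases a library value stood far from the other 3 of their group, out of 46 sets examined. A set is the 4 libraries of 1 group for a gene named in that population, and the 95% limit used marks about 1 in 20 such sets by chance. Eif5 gave 4 of them: 101.995 CPM in Tet2-KO GMP replicate 4 (others 34.8 to 42.9), 175 CPM in Tet2-KO MEP replicate 5 (others 42.3 to 53.6), 63.5 CPM in Tet2-KO CMP replicate 2 (others 35.6 to 39.6) and 232 CPM in WT MEP replicate 2 (others 297 to 304). In each case the library lay toward the other genotype. Eif5a was at 2272 CPM in WT MEP replicate 3 (others 2757 to 2799). Eif3j1 was at 30.9 CPM in WT CMP replicate 2 (others 38.6 to 39.5).

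The genotype difference differed between populations, by the interaction test of edgeR, for Eif3f (adjusted p = 1.25e-05), Eif4e3 (0.0159), Eif5a2 (0.0303) and Eif5 (0.0434). Eif5a2 does not pass without the libraries labelled CLP. With the replicate number as a block, Eif5a2 and Eif5 do not pass.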

How the results depend on the processing

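Of 112 member calls in single comparisons, 1 changed direction under an alternative: Eif4a2 in CLP against ST-HSC of WT libraries went from -0.44 to 0.098 under the G and C correction, where it did not pass. Medians near 0 did change sign: that of CLP against ST-HSC in Tet2-KO libraries went from -0.014 to 0.071 (RLE scaling), 0.059 (no filter) and 0.0071 (1 fit of 46 libraries), and that of ST-HSC against LT-HSC in Tet2-KO libraries from -0.028 to as much as 0.013 with 1 library left out. RLE scaling moved no total count by over 1.5 times. The split of higher and lower members moved under the G and C correction to 3 and 3 in GMP, to 6 and 0 (CMP against ST-HSC) and 1 and 6 (GMP against CMP) in WT, and to 1 and 4 (GMP against CMP) and 5 and 0 (MEP against CMP) in Tet2-KO, and under DESeq2 to 6 and 8 in CMP, 1 and 4 in GMP, 7 and 7 in MEP and 3 and 5 (GMP against CMP) in Tet2-KO. In the genotype comparisons, 1 fit of all 46 libraries gave 4 members in CMP and 4 in CLP, DESeq2 gave 5 in GMP, the G and C correction gave 6 in GMP and a median of -0.0078 in ST-HSC, no low-count filter gave 6 in MEP, and the 2-fold threshold left 4 in CMP and 6 in MEP. At the steps between populations, the WT counts were 4 (CMP against ST-HSC) and 3 (GMP against CMP) in the fit of 46 libraries, 18 and 10 with DESeq2, and 0 (GMP against CMP), 2 (MEP against CMP) and 14 (CLP against ST-HSC) at 2-fold. The Tet2-KO counts were 7 (GMP against CMP) in the fit of 46 libraries, 4 (CMP against ST-HSC) and 3 (MEP against CMP) with no filter, 13, 8 and 13 with DESeq2 and 2, 1 and 1 at 2-fold for the steps to CMP, GMP and MEP. Without the libraries labelled CLP they were 22, 16 and 24 in WT and 16, 9 and 14 in Tet2-KO. Medians moved under the G and C correction to 0.39 (MEP against CMP) and -0.0092 (CLP against ST-HSC) in WT and to 0.31, -0.20 and 0.11 (steps to CMP, GMP and CLP) in Tet2-KO, to -0.17 with no filter (GMP against CMP, Tet2-KO) and to 0.12 with DESeq2 (CLP against ST-HSC, Tet2-KO). The causes were not tested.

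With 1 library left out, the counts ranged from 6 to 9 in CMP, 5 to 8 in MEP, 2 to 7 (CMP against ST-HSC), 3 to 4 (GMP against CMP) and 17 to 27 (CLP against ST-HSC) in WT, and 2 to 4, 2 to 4 and 1 to 4 for the steps to CMP, GMP and MEP in Tet2-KO, and 1 to 4 for the interaction. The median ranged from -0.044 (without Tet2-KO CLP replicate 4, against 0.15 with all libraries) to 0.17 in CLP, and in WT from -0.23 to -0.13 (GMP against CMP) and 0.31 to 0.39 (MEP against CMP).

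The labels do not say that a number marks a mouse, and no kind of pair met the criterion used for pairing, a correlation of deviations over 0.1 in every pair. It was over 0.1 in 5 of 22 same-numbered pairs of WT and Tet2-KO libraries of a population (6 of 66 others), with 3 of the 5 in MEP, which has 4 such pairs. Between populations of a genotype it was over 0.1 in 27 of 60 same-numbered pairs (18 of 180 others) in Tet2-KO and in 13 of 51 (2 of 150 others) in WT. Same-numbered pairs were thus over 0.1 more often than other pairs, and the main tests did not use the numbers. The replicate block gave 8 members in CMP, 2 in GMP, 6 in MEP (0 higher and 6 lower, in place of 3 and 7) and 2 (Eif3f and Eif4e3) for the interaction. With it Eif4e3 did not pass in CMP (adjusted p = 0.068) or MEP (0.063), nor did Eif3m in CMP, Eif2b5 in GMP or Eif2a, Eif4b and Eif4g2 (0.058) in MEP. In the Tet2-KO steps Eif3e (MEP against CMP, 0.063), Eif4e (0.098) and Eif1a (0.053, both CLP against ST-HSC) did not pass with it. Eif3f in CMP, GMP and MEP, Eif5a in CMP and MEP, Eif4ebp1, Eif3j1 and Eif1b in MEP, and Eif5 in CMP and GMP passed under every alternative tried, except the 2-fold threshold for Eif5a in CMP and Eif1b. Eif3j1 and Eif4ebp1 in CMP failed in the fit of 46 libraries. Precision differed between populations: the standard error of the log2 fold change of Eif3f was 0.35 in LT-HSC, 0.26 in ST-HSC, 0.10 in CMP, 0.30 in GMP, 0.17 in MEP and 0.60 in CLP.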
